A study of Homo sapiens with 4 samples.

Results

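Genes of the smooth muscle contractile apparatus were followed by name in day 14 cardiomyocytes, in FPKM, a fragment count divided by the length of the gene and by the size of the library. These 10 of 23615 gene symbols were ACTA2, TAGLN, CNN1, MYH11, MYL9, MYLK, CALD1, SMTN, LMOD1 and ACTG2. They were chosen by symbol with earlier results of the same libraries known, so their levels and their differences between the groups are a description and carry no p-value.

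All 4 libraries were made from the human embryonic stem cell line RUES2, which was induced with 100 ng/ml activin A from day 0 and 5 ng/ml BMP4 from day 1 (A100/B5), with 1 µM CHIR-99021, an activator of Wnt/β-catenin signaling, beside the BMP4. The methods of the study also treat the cultures with CHIR-99021 before induction. In the CPC group (n = 2), cardiomyocytes came from A100/B5 cardiac progenitor cells. The protocol schematic of the study draws 1 µM XAV-939, a tankyrase inhibitor that lowers Wnt/β-catenin signaling, for such cells from day 3. The methods name this step for a subset of experiments, and the sample labels give no XAV-939 for this group. Whether the CPC libraries received it is not known. In the ECsXAV group (n = 2), cells were kept from day 2 in medium with 200 ng/ml VEGF, 5 ng/ml bFGF and 10 ng/ml BMP4 to become endothelial cells, and then received 2 µM XAV-939 from day 5. RNA was taken from unsorted cells, so each library holds every cell type of its culture, and for any gene fewer cells of a type and less RNA per cell cannot be told apart. The 2 replicates of a group are biological replicates of 1 cell line, and sample names of the groups start differently, so a difference between experiments and a difference between groups cannot be told apart. The whole-read steps of low FPKM put ECsXAV replicate 2 at 50.1% of the depth of ECsXAV replicate 1, and the CPC libraries at 86.9% (replicate 1) and 79.8% (replicate 2), while the total depth is unknown.

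Smooth muscle shortens when calcium-bound calmodulin switches on myosin light chain kinase, which phosphorylates the regulatory light chain and lets smooth muscle myosin pull on actin filaments. Calponin, caldesmon and transgelin bind these filaments, and leiomodin helps to build them. Most of the genes are switched on by serum response factor at CArG boxes, together with myocardin and related cofactors. Several of them, among them ACTA2, TAGLN and CNN1, are also active for a time in the embryonic heart, so their RNA alone does not mark a smooth muscle cell.

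The levels spanned over 3 orders of magnitude, and only some of the genes differed between the groups. MYL9, at rank 74 of all symbols by mean FPKM, was the highest of the 10 in every library. TAGLN and CALD1 were lower in CPC than in ECsXAV cardiomyocytes, by 5.84-fold and 2.67-fold in mean FPKM, while ACTA2, MYL9 and SMTN overlapped between the groups and LMOD1 was 1.59-fold higher in CPC. ACTG2, MYLK and MYH11 were below 1 FPKM in every library.

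**Figure D1:**
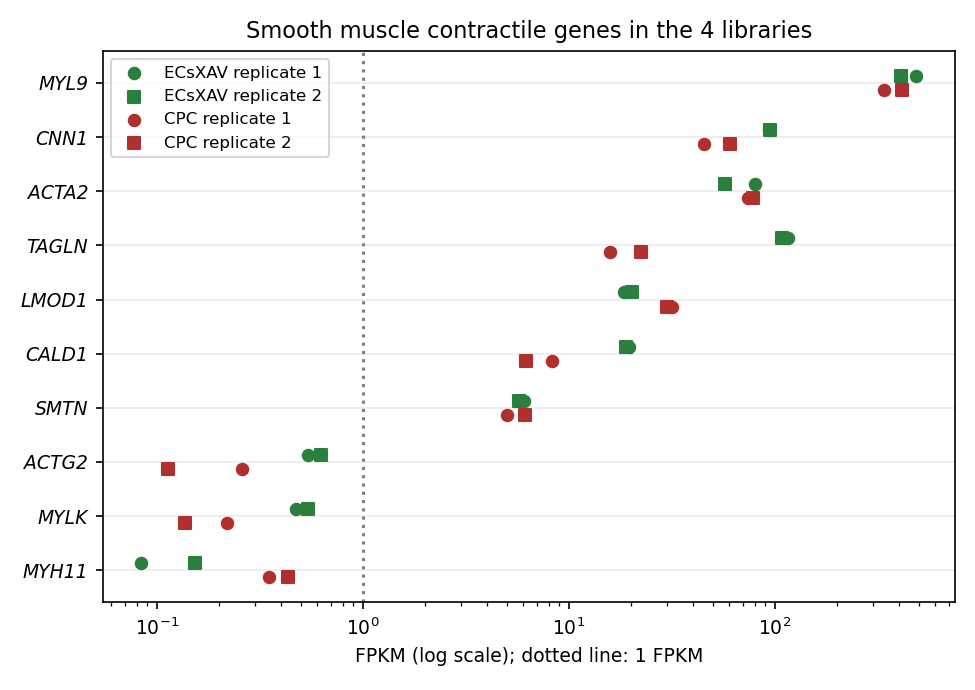
FPKM of the 10 genes on a log axis, with circles for replicate 1 and squares for replicate 2 of ECsXAV (green) and CPC (red). TAGLN and CALD1 lie to the left in both CPC libraries, ACTA2, MYL9 and SMTN overlap, and ACTG2, MYLK and MYH11 lie below the dotted line at 1 FPKM.

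The promoters are shown because they carry the CArG boxes through which this gene set is known to be controlled. RefSeq windows of 300 bases, 250 before and 50 after a start site, were read for 7 of the 10 genes (14 windows, GRCh38.p14), and those of TAGLN, MYH11 and MYL9 were not analysed here. A CArG box, taken as CC, 6 bases that are each A or T, and GG, which reads alike on both strands, was found in ACTG2, MYLK and SMTN. Of all 35116 windows, 1.29% held one. Allowing 1 of the 6 inner bases to be C or G, which 6.94% of all windows and 8.46% of genes hold, added ACTA2 and CALD1. The 250 bases before the start site, 5′ to 3′ on the strand of the gene, follow with these matches in capitals for ACTG2 (chr2:73892758-73893007, plus strand), MYLK (chr3:123620549-123620798, minus strand), SMTN (chr22:31084746-31084995, plus strand), ACTA2 at its proximal start (chr10:88952774-88953023, minus strand) and at a start 38564 bases upstream (chr10:88991338-88991587, minus strand), and CALD1 (chr7:134711249-134711498, plus strand).
ACTG2: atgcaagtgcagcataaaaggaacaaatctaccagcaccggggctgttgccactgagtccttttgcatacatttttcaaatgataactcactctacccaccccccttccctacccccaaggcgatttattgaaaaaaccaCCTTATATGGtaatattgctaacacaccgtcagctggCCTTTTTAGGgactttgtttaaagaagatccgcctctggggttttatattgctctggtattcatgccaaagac
MYLK: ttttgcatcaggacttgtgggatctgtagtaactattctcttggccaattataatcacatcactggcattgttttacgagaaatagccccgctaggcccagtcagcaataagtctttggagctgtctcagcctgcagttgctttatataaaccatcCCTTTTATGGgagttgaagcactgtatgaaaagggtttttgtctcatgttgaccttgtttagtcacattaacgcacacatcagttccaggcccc
SMTN: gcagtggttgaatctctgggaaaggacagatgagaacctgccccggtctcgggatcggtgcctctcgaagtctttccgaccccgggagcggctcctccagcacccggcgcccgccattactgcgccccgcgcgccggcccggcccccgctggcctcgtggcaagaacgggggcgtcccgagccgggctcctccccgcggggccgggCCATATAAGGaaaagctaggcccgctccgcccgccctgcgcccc
ACTA2 proximal: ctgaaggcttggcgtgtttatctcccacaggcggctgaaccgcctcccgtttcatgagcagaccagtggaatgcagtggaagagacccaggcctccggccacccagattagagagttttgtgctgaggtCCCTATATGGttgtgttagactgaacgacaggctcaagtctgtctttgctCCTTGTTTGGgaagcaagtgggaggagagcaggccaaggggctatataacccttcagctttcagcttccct
ACTA2 upstream: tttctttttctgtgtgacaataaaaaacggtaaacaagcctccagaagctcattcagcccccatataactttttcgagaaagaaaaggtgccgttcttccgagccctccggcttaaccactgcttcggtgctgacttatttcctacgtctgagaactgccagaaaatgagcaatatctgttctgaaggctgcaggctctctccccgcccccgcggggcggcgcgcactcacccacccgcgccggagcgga
CALD1: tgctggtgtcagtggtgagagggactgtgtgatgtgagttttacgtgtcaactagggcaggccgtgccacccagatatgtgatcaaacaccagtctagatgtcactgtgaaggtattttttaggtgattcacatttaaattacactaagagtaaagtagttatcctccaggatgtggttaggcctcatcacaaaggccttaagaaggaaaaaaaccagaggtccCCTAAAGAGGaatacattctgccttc

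ACTG2 held 2 exact boxes, at -110 to -101 and -73 to -64 from the start, MYLK held 1 at -94 to -85 and SMTN held 1 at -44 to -35. Windows are placed on GRCh38 and the genes below on GRCh37, so their positions cannot be set side by side. Which MYLK transcript starts at its window was not determined, so its box is not assigned to the kinase transcript. The proximal ACTA2 start held 2 boxes with 1 inner C or G, at -121 to -112 and -71 to -62, the upstream ACTA2 start held neither form, and CALD1 held 1 at -26 to -17. The other windows of CALD1 and SMTN, which are not printed, held neither form. The MCAT element CATTCC, the site of TEAD factors, was searched on both strands and did not overlap a box. It occurred in windows of ACTA2, CALD1, LMOD1, MYLK and SMTN, beside 14.0% of all windows and 16.7% of genes. None of the 3 elements was in the CNN1 window. These matches describe letters in a window and not a bound site.

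The alpha and gamma smooth muscle actins are the thin filament subunits of the set. ACTA2 (GRCh37 chr10:90694831-90751096, minus strand), the alpha smooth muscle actin, was at 80.5 and 57.5 FPKM in ECsXAV and at 74.2 and 78.5 FPKM in CPC. The ECsXAV libraries lay on both sides of the CPC libraries, and the log2 fold change (CPC minus ECsXAV, on log2(FPKM + 1) as for all log2 values here) was 0.16 ± 0.19 (SE, n = 2 in each group). Its sign changed to -0.075 without ECsXAV replicate 2. ACTG2 (chr2:74119441-74146992, plus strand), the gamma actin of enteric smooth muscle, was at 0.542 and 0.631 FPKM in ECsXAV and at 0.260 and 0.113 FPKM in CPC. Both CPC libraries lay below both ECsXAV libraries, at levels that rest on few reads.

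Set beside the striated muscle actins, ACTA2 was a small share. ACTC1, the cardiac alpha actin, was at 1120 and 1108 FPKM in ECsXAV and 1259 and 1231 FPKM in CPC, which is 91.5 to 93.2% of the summed FPKM of the 4 muscle actins. ACTA2 made up 6.57 and 4.84% of this sum in ECsXAV and 5.49 and 5.86% in CPC. ACTA1, the skeletal alpha actin, was at 22.8 and 22.4 FPKM in ECsXAV and 19.7 and 29.6 FPKM in CPC, so the order ACTC1, ACTA2, ACTA1, ACTG2 held in all 4 libraries.

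The motor and its switch were present in unequal parts. MYL9 (chr20:35169900-35179850, plus strand), the regulatory light chain that the kinase phosphorylates, was at 486 and 409 FPKM in ECsXAV and 339 and 417 FPKM in CPC. The groups overlapped, with a log2 fold change of -0.25 ± 0.17 that ran from -0.396 to -0.096 with 1 library left out (without CPC replicate 2 and CPC replicate 1, respectively) and was -0.047 with quantile normalization. MYH11 (chr16:15796992-15950885, minus strand), the smooth muscle myosin heavy chain and the most specific of these genes for smooth muscle, was at 0.0844 and 0.154 FPKM in ECsXAV and 0.351 and 0.433 FPKM in CPC. Both CPC libraries were above both ECsXAV libraries, 3.29-fold in mean FPKM. MYLK (chr3:123328896-123603179, minus strand), the gene of the kinase, was at 0.475 and 0.541 FPKM in ECsXAV and 0.219 and 0.138 FPKM in CPC, and here the CPC libraries were the lower ones, 2.85-fold in mean FPKM. This value pools its RefSeq transcripts, whose split rests on few reads. NM_053027 held 64.7 and 63.6% of the gene in ECsXAV and 9.07e-08 and 4.96% in CPC. In CPC replicate 2, NM_053032 held 75.4%. Which of them encode the kinase domain was not determined, so the fold is that of the gene.

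MYH11 and MYLK were minor members of their families. MYH11 was 0.109 and 0.193% of the summed FPKM of MYH11, MYH9, MYH10 and MYH14 in ECsXAV and 0.539 and 0.656% in CPC. The nonmuscle heavy chains held nearly all of it, with MYH9 at 41.7 and 45.6 FPKM in ECsXAV and 34.5 and 36.3 FPKM in CPC, and MYH10 at 35.0 and 33.1 FPKM in ECsXAV and 29.996 and 29.0 FPKM in CPC. MYLK was 1.12 and 1.44% of the 4 myosin light chain kinases in ECsXAV and 0.663 and 0.576% in CPC, and MYLK3, the cardiac kinase, named after its values were seen, was 97.4 to 98.8%. MYL9, in contrast, was 75.1 to 79.1% of the summed FPKM of MYL9, MYL12A and MYL12B.

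Among the 7 genes with a mean of at least 1 FPKM, the actin-binding proteins TAGLN and CALD1 had the largest differences on log2(FPKM + 1). TAGLN (chr11:117070086-117078180, plus strand), which encodes transgelin, also called SM22 alpha, was at 116 and 108 FPKM in ECsXAV and 15.8 and 22.6 FPKM in CPC. The higher CPC library was far below the lower ECsXAV library, and the log2 fold change was -2.51 ± 0.19. CALD1 (chr7:134429003-134655480, plus strand), which encodes caldesmon, an inhibitor of the myosin ATPase on actin, was at 19.7 and 18.9 FPKM in ECsXAV and 8.27 and 6.18 FPKM in CPC. Its log2 fold change was -1.31 ± 0.16, again with no overlap. CNN1 (chr19:11649582-11661138, plus strand), which encodes the basic calponin of smooth muscle, was at 94.2 and 94.9 FPKM in ECsXAV and 45.5 and 60.5 FPKM in CPC. The groups did not overlap, and the log2 fold change of -0.84 ± 0.16 was short of 2-fold.

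LMOD1 (chr1:201865584-201915676, minus strand), leiomodin 1, which nucleates actin filaments in smooth muscle, was at 18.6 and 20.2 FPKM in ECsXAV and 31.7 and 29.98 FPKM in CPC. Both CPC libraries were above both ECsXAV libraries, with a log2 fold change of 0.64 ± 0.11. SMTN (chr22:31460091-31500743, plus strand), smoothelin, a stress fiber protein of contractile smooth muscle, was at 6.06 and 5.72 FPKM in ECsXAV and 5.03 and 6.14 FPKM in CPC. These overlapped, with a log2 fold change of -0.07 ± 0.14 that became 0.052 without CPC replicate 1.

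Of the 10 genes, 7 had a mean of at least 1 FPKM and entered the limma fit over 12398 genes. The criterion was an adjusted p under 0.05, after Benjamini-Hochberg adjustment over all tested genes, with a fold over 2. TAGLN and CALD1 were past it, both lower in CPC, and the other 5 were not, beside 2.15% of all tested genes past it, 1.44% lower in CPC and 0.71% higher in CPC. The balance over all genes turned to 11 lower and 39 higher in CPC without CPC replicate 1, to 16 lower and 56 higher without CPC replicate 2, and to 8 lower and 12 higher with no filter on low FPKM. The members were chosen with this contrast known, so nothing is read from that count. The median log2 fold change of the 7 was -0.25, beside -0.0045 over all tested genes. It was negative throughout but unsteady in size, at -0.058 with quantile normalization and, with 1 library left out, -0.123 without ECsXAV replicate 1, -0.369 without ECsXAV replicate 2, -0.096 without CPC replicate 1 and -0.396 without CPC replicate 2. With no filter on low FPKM, neither gene was past the criterion, and neither was without ECsXAV replicate 1 or without ECsXAV replicate 2, while TAGLN alone was past it without CPC replicate 1 or without CPC replicate 2. With 1 library left out, the log2 fold change ran from -2.75 to -2.26 for TAGLN and from -1.499 to -1.13 for CALD1, all lower in CPC. For 1 gene alone, the smallest two-sided p that an exact permutation of 2 and 2 libraries allows is 0.3333.

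**Figure D2:**
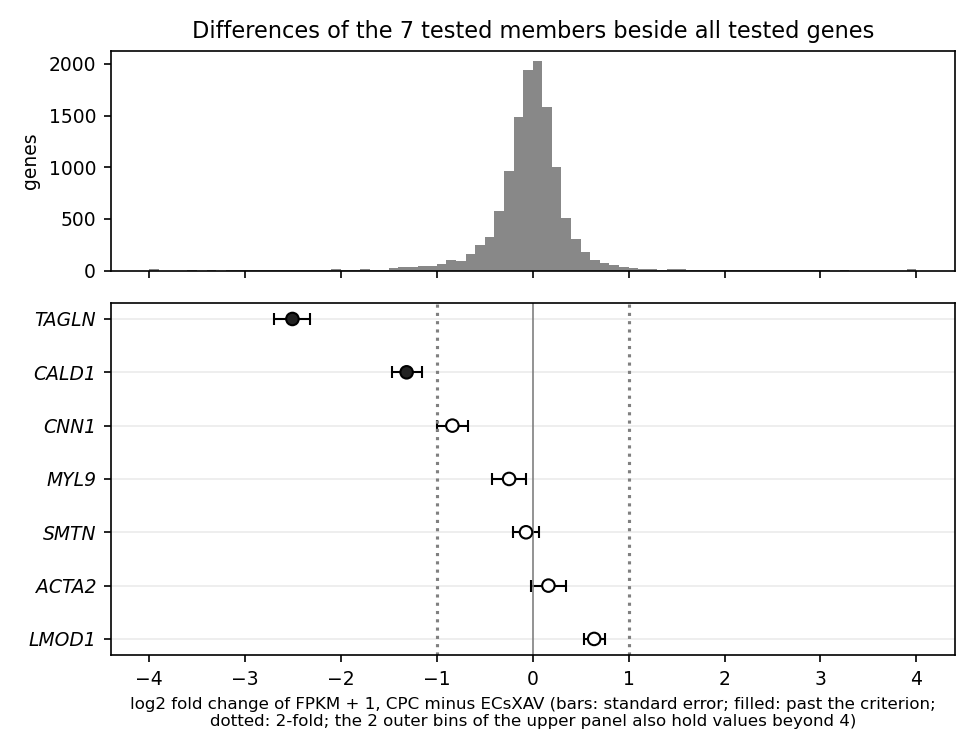
Upper panel, number of tested genes by log2 fold change (CPC minus ECsXAV); lower panel, log2 fold change of the 7 tested members with the standard error as a bar, filled where past the criterion. TAGLN at -2.51 and CALD1 at -1.31 lie beyond 2-fold, and LMOD1 at 0.64 lies on the other side of 0.

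By place among all tested genes, 0.50% had a lower value than TAGLN, 1.65% than CALD1 and 3.81% than CNN1, while 96.3% had a lower value than LMOD1. MYL9, SMTN and ACTA2 were inside the bulk, with 19.2, 39.3 and 75.8% of genes below them. The libraries of the groups did not overlap for 7 of the 10 members (5 lower in CPC, 2 higher in CPC), beside 46.6% of all symbols above 0, and for 4 of the 7 tested members, beside 49.8% of tested genes.

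The order of the genes by FPKM differed between the groups. In ECsXAV it ran MYL9, TAGLN, CNN1, ACTA2, LMOD1, CALD1, SMTN, ACTG2, MYLK and MYH11, and 2 pairs of neighbours, LMOD1 with CALD1 and ACTG2 with MYLK, did not differ beyond their spread. In CPC it ran MYL9, ACTA2, CNN1, LMOD1, TAGLN, CALD1, SMTN, MYH11, ACTG2 and MYLK, and CALD1 with SMTN and ACTG2 with MYLK did not differ beyond theirs. TAGLN thus stood the second in ECsXAV and the fifth in CPC. Within a library, the ratio of TAGLN to ACTA2 FPKM was 1.44 and 1.88 in ECsXAV and 0.213 and 0.287 in CPC. A scaling factor for a whole library cannot alter this ratio, though quantile normalization can. The ratio of CALD1 to ACTA2 was 0.244 and 0.329 in ECsXAV and 0.111 and 0.0787 in CPC, and that of LMOD1 to ACTA2 was 0.231 and 0.352 in ECsXAV and 0.427 and 0.382 in CPC. The 10 genes summed to 822 and 716 FPKM in ECsXAV and 520 and 622 FPKM in CPC, of which TAGLN took 14.1 and 15.1% in ECsXAV and 3.04 and 3.63% in CPC, and MYL9 took 57.2 to 67.1%.

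Family shares gave a view of each gene against its closest relatives. CNN1 was 51.2 and 48.6% of the summed FPKM of the 3 calponins in ECsXAV and 32.4 and 37.1% in CPC. CNN2, a calponin of many cell types, was at 42.8 and 50.02 FPKM in ECsXAV and 55.3 and 63.4 FPKM in CPC, so its share was the larger of the 2 in CPC only. LMOD1 was 47.3 and 44.6% of the 3 leiomodins in ECsXAV and 59.7 and 65.7% in CPC. LMOD2, the leiomodin of heart muscle, was at 19.1 and 23.7 FPKM in ECsXAV and 19.7 and 13.3 FPKM in CPC. TAGLN remained 93.3 to 97.3% of the 3 transgelins in all 4 libraries although its level differed, and TAGLN2, at 3.08 and 4.59 FPKM in ECsXAV and 1.03 and 1.61 FPKM in CPC, was also lower in both CPC libraries. SMTN was 6.19 to 10.01% of the 3 smoothelins, where SMTNL2 was 88.9 to 92.7%. CNN2, LMOD2, TAGLN2 and SMTNL2 were named after their values were seen.

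**Figure D3:**
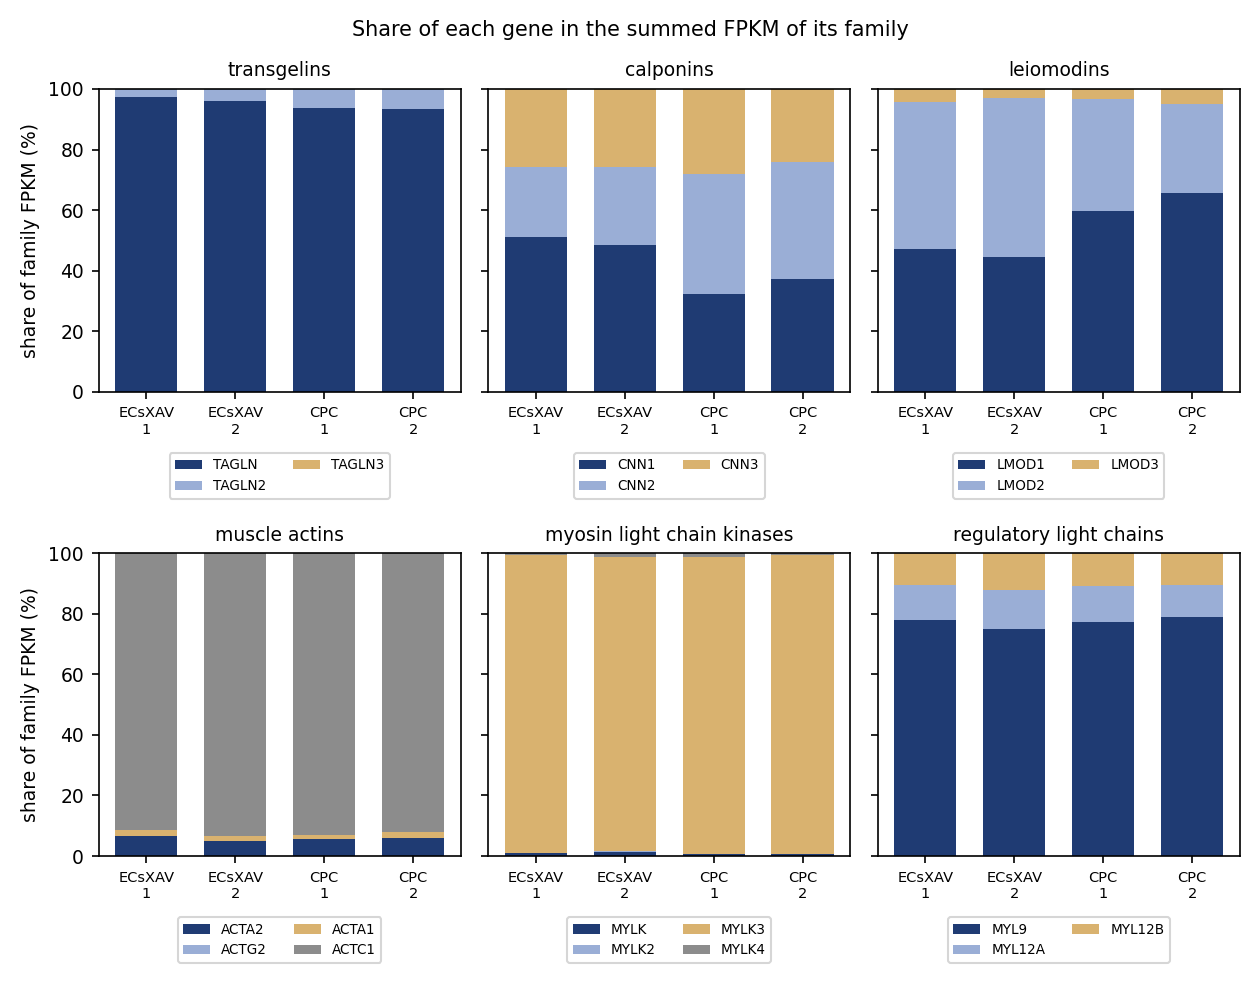
Share of each gene (%) in the summed FPKM of its family, as stacked bars from 0 to 100% for each of the 4 libraries. CNN1 takes 51.2 and 48.6% in ECsXAV and 32.4 and 37.1% in CPC, LMOD1 takes 47.3 and 44.6% in ECsXAV and 59.7 and 65.7% in CPC, and ACTA2 takes 4.84 to 6.57% of the muscle actins.

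The transcript values split each gene over its RefSeq transcripts, 30 for the 10 genes. They add up to the gene FPKM, so they are not independent of the values known when the genes were chosen. The split is an estimate from reads that several transcripts share, and some transcripts went from near 0 to several FPKM between replicates. The TAGLN difference lay in NM_003186, at 113 and 105 FPKM in ECsXAV and 12.5 and 20.7 FPKM in CPC. The other TAGLN transcript, NM_001001522, was at 2.86 and 3.18 FPKM in ECsXAV and 3.33 and 1.87 FPKM in CPC, which overlapped. For ACTA2, the main transcript NM_001613 was at 78.0 and 55.0 FPKM in ECsXAV and 73.5 and 77.9 FPKM in CPC. The minor transcript NM_001141945, whose first exon is upstream, was at 2.42 and 2.54 FPKM in ECsXAV and 0.727 and 0.639 FPKM in CPC, or 3.01 and 4.42% of the gene in ECsXAV and 0.979 and 0.815% in CPC. So the ACTA2 groups overlapped for the gene and its main transcript but not for this minor transcript.

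SMTN, which overlapped as a gene, did not overlap in 2 of its 5 transcripts, which lay in opposite directions. The share over all transcripts was not determined. Of all symbols above 0, 46.6% did not overlap, so the 2 of 5 are not read as a result. NM_001207017 was at 1.91 and 1.13 FPKM in ECsXAV and 0.837 and 0.951 FPKM in CPC. NM_006932 was at 0.632 and 0.740 FPKM in ECsXAV and 2.09 and 1.87 FPKM in CPC, which is 10.4 and 12.9% of the gene in ECsXAV and 41.5 and 30.5% in CPC. For CALD1, NM_033138, the transcript of the long caldesmon that is typical of differentiated smooth muscle, was at 8.47 and 9.67 FPKM in ECsXAV and 4.21 and 1.82 FPKM in CPC. As a share of the gene it was 43.1 and 51.1% in ECsXAV and 50.9 and 29.5% in CPC, so its share overlapped while its level did not. Of the other CALD1 transcripts, NM_033139 was lower in both CPC libraries but differed widely within each group, at 3.73 and 1.35 FPKM in ECsXAV and 0.576 and 0.00219 FPKM in CPC. NM_033157 was at 1.12 and 0.963 FPKM in ECsXAV and at 4.43e-05 and 0.000249 FPKM in CPC. The replicates of MYH11 were not alike: NM_002474 held 93.1 to 98.1% of the gene in 3 libraries, but in ECsXAV replicate 2, the shallowest, NM_001040114 held 97.3%. MYL9 was almost wholly NM_006097 except in CPC replicate 2, where NM_181526 took 15.5%. No test was made of these shares.

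**Figure D4:**
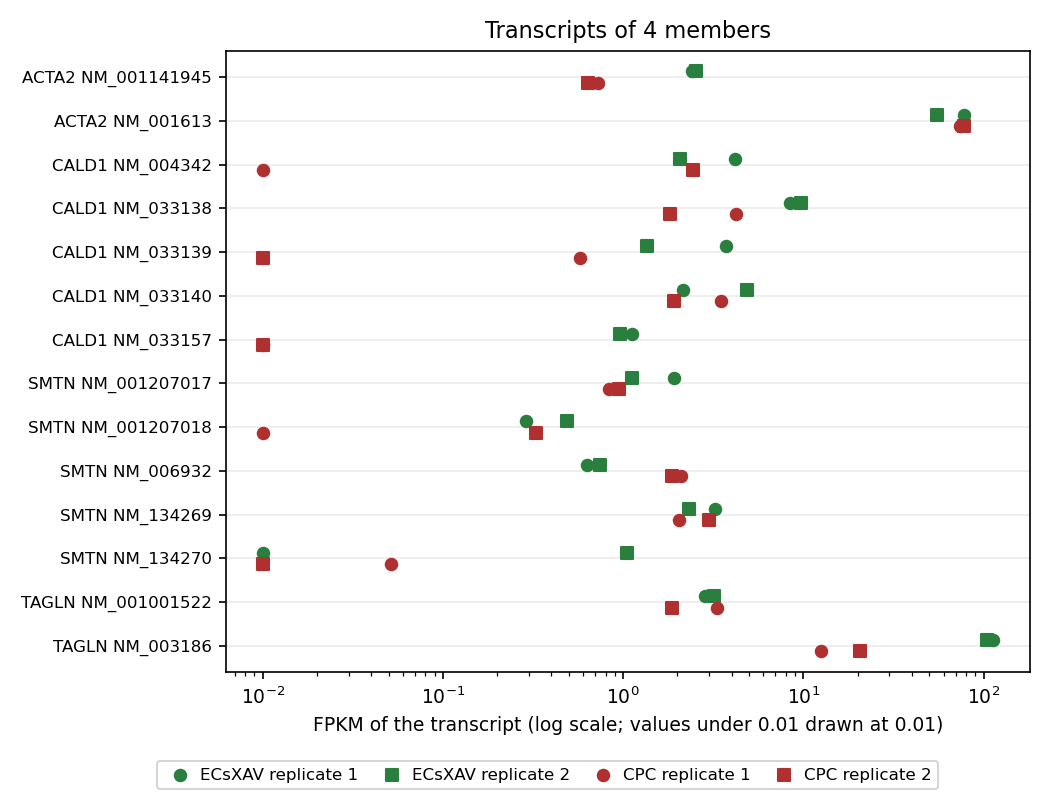
FPKM of the RefSeq transcripts of TAGLN, ACTA2, SMTN and CALD1 on a log axis, with values under 0.01 drawn at 0.01, circles for replicate 1 and squares for replicate 2 of ECsXAV (green) and CPC (red). The groups lie apart at NM_003186 of TAGLN, NM_001141945 of ACTA2 and, toward higher values in CPC, NM_006932 of SMTN. They also lie apart at NM_001207017 of SMTN and at NM_033138, NM_033139 and NM_033157 of CALD1, and several CALD1 transcripts scatter between replicates. The share over all transcripts was not determined.

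Reads of neighbouring or similar genes could enter some of these values. On the opposite strand, exons of PCSK7 cover 2232 bases, 59.0% of the exon bases of the canonical TAGLN transcript, and the strand setting behind the FPKM is not given in the sources used here. PCSK7 was at 5.55 and 5.71 FPKM in ECsXAV and 6.12 and 6.38 FPKM in CPC, below TAGLN in all 4 libraries. NDE1 covers 477 exon bases (6.93%) of MYH11 from the opposite strand and, at 3.14 and 2.71 FPKM in ECsXAV and 1.93 and 1.89 FPKM in CPC, was above MYH11 in every library, so the low MYH11 values are uncertain. MYLK-AS1 covers 133 exon bases (1.32%) of MYLK and was also above MYLK in every library. No 50-base stretch of the canonical transcripts of ACTA2, CNN1, MYL9, CALD1, SMTN or LMOD1 occurs in a transcript of another gene, and such stretches make up 0.747% of MYH11, 1.51% of MYLK and 0.138% of ACTG2. In TAGLN they make up 65.5%, all shared with 1 overlapping GENCODE entry that has no symbol. PCSK7, NDE1 and MYLK-AS1 are named for these overlaps. The overlaps and shared stretches were read on GENCODE canonical transcripts. The FPKM rest on UCSC annotations, whose exons were not compared with them, so the shares need not be those of the reported values.

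The transcriptional regulators of smooth muscle genes were tested in the same fit, from a list of 20 genes. This list and those that follow were drawn up with earlier results of these libraries known, so their counts and adjusted p-values are not independent evidence of a direction. Of 16 tested, 2 fell in CPC and none rose past the criterion, beside 1.44% lower and 0.71% higher in CPC of all tested genes. CSRP1, a LIM protein that bridges serum response factor and GATA factors and binds the actin cytoskeleton, was at 24.2 and 23.7 FPKM in ECsXAV and 6.58 and 7.69 FPKM in CPC (log2 fold change -1.62 ± 0.12, limma adjusted p = 0.0122). CSRP2, its relative in arterial smooth muscle, was at 114 and 117 FPKM in ECsXAV and 37.02 and 43.9 FPKM in CPC (log2 fold change -1.497 ± 0.128, limma adjusted p = 0.0163). Both CPC libraries were below both ECsXAV libraries for these 2 genes.

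The core factors were not past the criterion. SRF was at 16.5 and 18.9 FPKM in ECsXAV and 26.4 and 27.5 FPKM in CPC, above in both CPC libraries, with a log2 fold change of 0.58 ± 0.12 (limma adjusted p = 0.0837). MYOCD, myocardin, which also acts in heart muscle, was at 40.6 and 36.04 FPKM in ECsXAV and 36.4 and 26.5 FPKM in CPC, which overlapped (log2 fold change -0.29 ± 0.18, limma adjusted p = 0.482). Its relatives MKL1 and MKL2 had log2 fold changes of 0.33 ± 0.12 and 0.26 ± 0.17 (limma adjusted p = 0.235 and 0.491). The median over the 16 was -0.04. These p-values do not show that SRF, MYOCD, MKL1 or MKL2 were equal in the groups: the 95% interval of the log2 fold change was 0.28 to 0.89 for SRF and -0.76 to 0.18 for MYOCD.

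Of 25 actin filament and dense body partners, 24 were tested, 2 fell in CPC and none rose, beside the same 1.44 and 0.71% of all tested genes. PDLIM1, a LIM protein that ties alpha-actinin to stress fibers, was at 125 and 120 FPKM in ECsXAV and 42.4 and 52.0 FPKM in CPC (log2 fold change -1.37 ± 0.14, limma adjusted p = 0.0237). TNS1, tensin 1, which joins actin to integrins, was at 12.2 and 12.5 FPKM in ECsXAV and 4.35 and 4.64 FPKM in CPC (log2 fold change -1.28 ± 0.11, limma adjusted p = 0.0162). The other 22 ran from -0.97 to 0.57, and the median over the 24 was -0.21. Without any 1 of the 4 libraries, and with no filter on low FPKM, none of CSRP1, CSRP2, PDLIM1 and TNS1 was past the criterion.

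No gene passed among the 20 tested of 22 contraction regulators, which take in myosin phosphatase, calmodulin and the cyclic GMP pathway, and none among the 17 tested of 23 paralogues of the members. At an unadjusted p under 0.05 there were 3 contraction regulators and 7 paralogues. The share of all tested genes at this p is not given here, so nothing is read from these counts. The medians were -0.04 and -0.18. ACTB, the beta cytoplasmic actin, was at 69.9 and 96.7 FPKM in ECsXAV and 138 and 139 FPKM in CPC (log2 fold change 0.75 ± 0.18, limma adjusted p = 0.123), and ACTG1, the gamma cytoplasmic actin, was at 62.0 and 85.8 FPKM in ECsXAV and 93.4 and 87.3 FPKM in CPC (log2 fold change 0.30 ± 0.18). The counts turned on 1 gene each, both lower in CPC and named after their values were seen: PDE5A, the cyclic GMP phosphodiesterase, passed with no intensity trend or with short RNA genes left out, and TAGLN2 passed with short RNA genes left out.

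**Figure D5:**
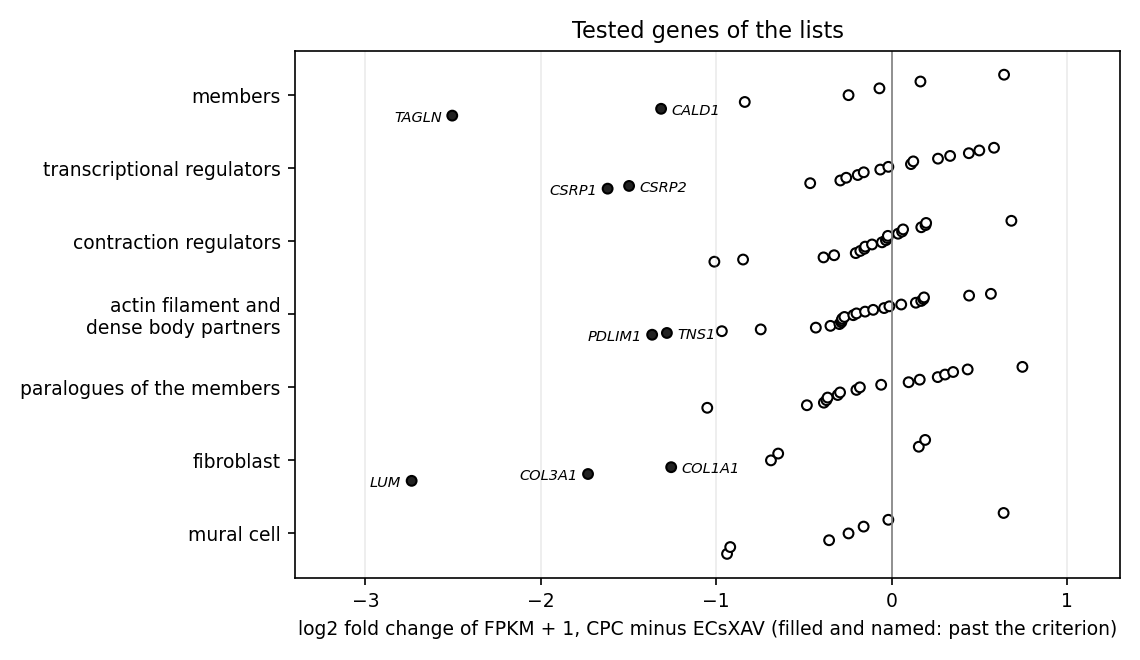
Log2 fold change (CPC minus ECsXAV) of the tested genes of 7 lists, 1 point a gene, filled and named where past the criterion. TAGLN, CALD1, CSRP1, CSRP2, PDLIM1 and TNS1 lie to the left with the fibroblast genes LUM, COL3A1 and COL1A1, and no filled point lies to the right of 0.

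Markers of other cell types that unsorted cultures could hold were read beside these values. Of all tested genes, 2.15% were past the criterion, 1.44% lower and 0.71% higher in CPC. Marker counts at an unadjusted p have no such share beside them, and nothing is read from them. Of 11 fibroblast markers, 7 were tested and 3 (LUM, COL1A1 and COL3A1, named after their values were seen) fell in CPC, with log2 fold changes of -2.74 to -1.26. LUM alone of these passed with the replicate block or without either ECsXAV library, and none of the 3 passed with no filter or without either CPC library; COL3A1 also did not pass with quantile normalization. The summed fibroblast level was 205 and 242 FPKM in ECsXAV and 115 and 114 FPKM in CPC. COL1A1 and COL1A2 held most of this sum. Its direction was that of TAGLN, CALD1 and CNN1, and its part in their difference was not tested. Of the 7 tested fibroblast markers, 5 were lower and 2 higher in CPC. The 2 higher were PDGFRA and POSTN (log2 fold changes of 0.19 ± 0.16 and 0.15 ± 0.14), neither past the criterion. Of 10 mural cell markers, genes of pericytes and vascular smooth muscle, 7 were tested and none passed (3 at an unadjusted p under 0.05). Their sum was 58.8 and 53.4 FPKM in ECsXAV and 44.4 and 41.0 FPKM in CPC, and HIGD1B was at 0 in all 4 libraries. The simple epithelium sum was 284 and 499 FPKM in ECsXAV and 230 and 200 FPKM in CPC, or 284 and 340 against 143 and 200 FPKM without KRT8 and KRT18, which are listed at 0 in ECsXAV replicate 1 and CPC replicate 2, and 1 of its 7 tested genes, AFP, fell.

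All 10 cardiomyocyte markers were tested, as the cardiomyocyte label of both groups asks, and they summed to 15368 and 14895 FPKM in ECsXAV and 13205 and 13940 FPKM in CPC, with MYH7 and NPPA lower and MYH6 higher in CPC past the criterion (log2 fold changes of -2.52, -3.30 and 1.21). Endothelial and epicardial markers had 4 of 10 and 1 of 7 genes tested, none past the criterion and none at an unadjusted p under 0.05. Their sums were 24.6 to 29.6 FPKM and 22.7 to 30.9 FPKM. EGFL7 and KDR held most of the former and LRRN4 most of the latter, so the sums say little about the other markers. The groups did not overlap for 6 endothelial markers (5 lower, 1 higher in CPC) and 3 epicardial markers (2 lower, 1 higher in CPC). Of these, TBX18, not tested, was at 1.49 and 1.49 FPKM in ECsXAV and 0.444 and 0.348 FPKM in CPC. These 4 genes were named after their values were seen. Of 12 skeletal muscle markers, 5 were tested and 2 (ACTN3 and STAC3) rose in CPC past the criterion. In direction alone, 3 of the 5 were higher and 2 lower in CPC. The 2 lower were TNNT3 and CKM, neither past the criterion and both named after their values were seen. TNNT3 was at 3.76 and 3.89 FPKM in ECsXAV and 0.988 and 1.92 FPKM in CPC, and CKM overlapped between the groups. The determination factors MYF5 and MYF6 were at 0 in all 4 libraries. The skeletal muscle sum was 419 and 504 FPKM in ECsXAV and 465 and 557 FPKM in CPC. CKM held most of it, at 375 and 440 FPKM in ECsXAV and 309 and 405 FPKM in CPC.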

How the data were processed

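Poly-A RNA libraries (Illumina TruSeq) of unsorted day 14 cells were sequenced by the authors, with 2 libraries in each of 2 groups. The deposited values are FPKM per gene and per transcript, which the authors computed on UCSC annotations with Cufflinks 2.1.1. The labels name TopHat 1.3.3 and hg19, and the handling of strand and of reads with several alignments is not given in the sources used here for the FPKM. Groups and replicate numbers came from the sample labels. The members and lists were chosen with earlier results of these data known. A symbol listed at several loci was represented by its most highly expressed locus, and each member had 1 row. The log2(FPKM + 1) values of the 12398 genes averaging 1 FPKM or more were fitted in R 4.3.3 (limma 3.58.1, variance prior with a trend on intensity, Benjamini-Hochberg adjustment). The steps were also run on simulated data with less noise than these libraries, which checks the code and not the reliability of the calls. The added 1 understates the changes of low genes. The named genes were all members, list genes past the criterion (of markers, by count and range), SRF, MYOCD, MKL1, MKL2, ACTA1, ACTC1, ACTB, ACTG1, MYH9, MYH10 and markers at 0 in every library; others, among them the further relatives in the family shares, KRT8, KRT18 and called markers, were named after their values were seen. Coordinates came from GENCODE release 44 on GRCh37 and promoters from RefSeq (GRCh38.p14). The alternatives were no filter, a minimum mean of 5 FPKM, an added 0.1 in place of 1, quantile normalization, scaling by the median of ratios, a prior without the trend, summed transcripts, a replicate block, each library left out and, added after the data were seen, short RNA genes left out. Python 3.11.15, pandas 2.3.3 and matplotlib 3.10.9 made the tables and figures.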

Additional observations from a re-analysis of the deposited data

How the results depend on the processing

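Under the 14 alternatives the median of the members stayed negative, from -0.396 to -0.058, and TAGLN, CALD1, CNN1, MYL9 and LMOD1 kept their direction. The sign turned for ACTA2 without ECsXAV replicate 2 (-0.075) and for SMTN without CPC replicate 1 (0.052); with 1 library left out they ranged from -0.075 to 0.40 and from -0.19 to 0.052. With no filter, 18772 genes entered and 20 were past the criterion, against 266 of 12398, and the calls were 0 of the members, 0 of the regulators, 0 of the actin partners and 1 of the markers, against 2, 2, 2 and 9. With 1 library left out, where the lone library is assumed to vary like the other group, the calls ranged from 0 to 1 for members (TAGLN, without either CPC library), were 0 for regulators and for actin partners, and ranged from 0 to 4 for markers. Contraction regulators had 1 call with no intensity trend and 1 with short RNA genes left out, with or without the replicate block, and paralogues had 1 call in both of the latter. These causes were not tested. Of all tested genes, 176 were past the criterion with the replicate block. The block left 2 members, 2 regulators and 2 actin partners past the criterion and 5 markers (LUM, MYH7, NPPA, STAC3 and AFP); the labels do not say what same-numbered replicates share, and the differences between replicates of the 2 groups had a Spearman correlation across genes of 0.356 and a Pearson correlation of 0.035. Over all genes, leaving out 1 library gave 50 to 118 genes past the criterion, of which most were higher in CPC without either CPC library, as with no filter; the counts were 263 with median-of-ratios scaling and 205 with quantile normalization, and 152 of 8266 with a mean FPKM of at least 5. ACTG2, MYLK and MYH11 lie under 1 FPKM, where few reads and the unknown total depth limit any fold.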
